A study of Sus scrofa with 6 samples.

Results

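The genes of retinoid signalling were followed through the reprogramming of porcine embryonic fibroblasts (PEFs) to porcine induced pluripotent stem cells (piPSCs). They are 5 nuclear receptors (RARA, RARB, RARG, RXRA and RXRB), 2 carriers (CRABP1 and CRABP2) and 2 enzymes (ALDH1A1 and ALDH1A2), chosen by name, and all 9 are among the 18007 genes of the RNA-seq table. The PEFs came from the ear tips of fetuses at embryonic day 90 from a cross of a Large White boar (labelled Longwhite) with a Meishan sow. The 3 lines were PEF5, PEF7 and PEF8, from which piPSC5, piPSC7 and piPSC8 were derived with a doxycycline-dependent lentiviral vector carrying Oct4, Sox2, Klf4 and cMyc. The groups also differ in culture, since infected cells were grown in LF2i medium and the piPSC colonies on mouse feeder cells, and these differences cannot be told apart from reprogramming. Each line gave 1 poly-A library, read from both ends over 150 bp.

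Retinoic acid is made from vitamin A (retinol) in successive steps, oxidation to retinaldehyde by retinol dehydrogenases and oxidation to the acid by enzymes of the ALDH1A family. In the cell it is bound by CRABP proteins and acts through retinoic acid receptors (RARs), which sit on DNA in heterodimers with retinoid X receptors (RXRs), and CYP26 enzymes break it down. RXRs also pair with thyroid hormone, vitamin D, peroxisome proliferator-activated and liver X receptors. In embryos retinoic acid patterns the limbs, face and hindbrain, and it drives many pluripotent cells to differentiate.

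The libraries held between 11010629 and 17836510 fragments. The 11 fibroblast markers checked were all called lower in piPSCs, with summed levels of 6504 to 9773 FPKM in PEFs and 237 to 487 FPKM in piPSCs. FPKM is fragments scaled to the length of the gene and to the fragments of the library, and levels of different genes are compared on this per-length scale. Of 10 pluripotency markers, 6 were in the table, and NANOG, SALL4, ESRRB and ZFP42 stayed below 0.1 FPKM in every library. SOX2 had 3.01, 2.49 and 0.129 FPKM in piPSC5, piPSC7 and piPSC8, and LIN28B had 2.51, 0.281 and 8.90 FPKM. The study describes the 3 lines as male. The Y-linked gene DDX3Y had 3439 fragments in PEF8, 4207 in piPSC8 and 0 in the libraries of lines 5 and 7. The Y-linked EIF1AY (551 and 456), KDM5D (123 and 110) and UTY (77 and 142) were also found in PEF8 and piPSC8. In lines 5 and 7 they had 0 fragments, except 1 of UTY in piPSC5. For lines 5 and 7 these values do not bear out the description as male. The cause was not tested, and traits of line 8 cannot be told apart from this difference. The labels do not say which line came from which fetus, so p-values here measure the spread between these lines.

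In piPSCs, 4 of the 9 retinoid genes were lower (RARA, RARG, RXRA and CRABP2) and 1 was higher (RARB). RXRB, CRABP1 and ALDH1A1 passed the filter on low values but not the test, and ALDH1A2 was below the filter. A gene was tested where its mean was at least 0.5 FPKM, and called where limma gave an adjusted p below 0.05 with a change of 2-fold or more (log2FC, the log2 ratio of FPKM + 1 in piPSCs over PEFs), a scale on which the changes of weakly expressed genes are understated. Of 12428 tested genes, 36.8% were called, 20.2% higher and 16.7% lower in piPSCs. The 8 tested retinoid genes had a median log2FC of -1.81, against 0.20 for all tested genes. In 5 of them no PEF value overlapped a piPSC value, with the PEFs above in 4 and the piPSCs above in 1. Among all tested genes 64.1% did not overlap, 26.8% with the PEFs and 37.3% with the piPSCs above. In a whole-culture library, fewer cells that use a gene and less RNA per cell cannot be told apart.

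**Figure D1:**
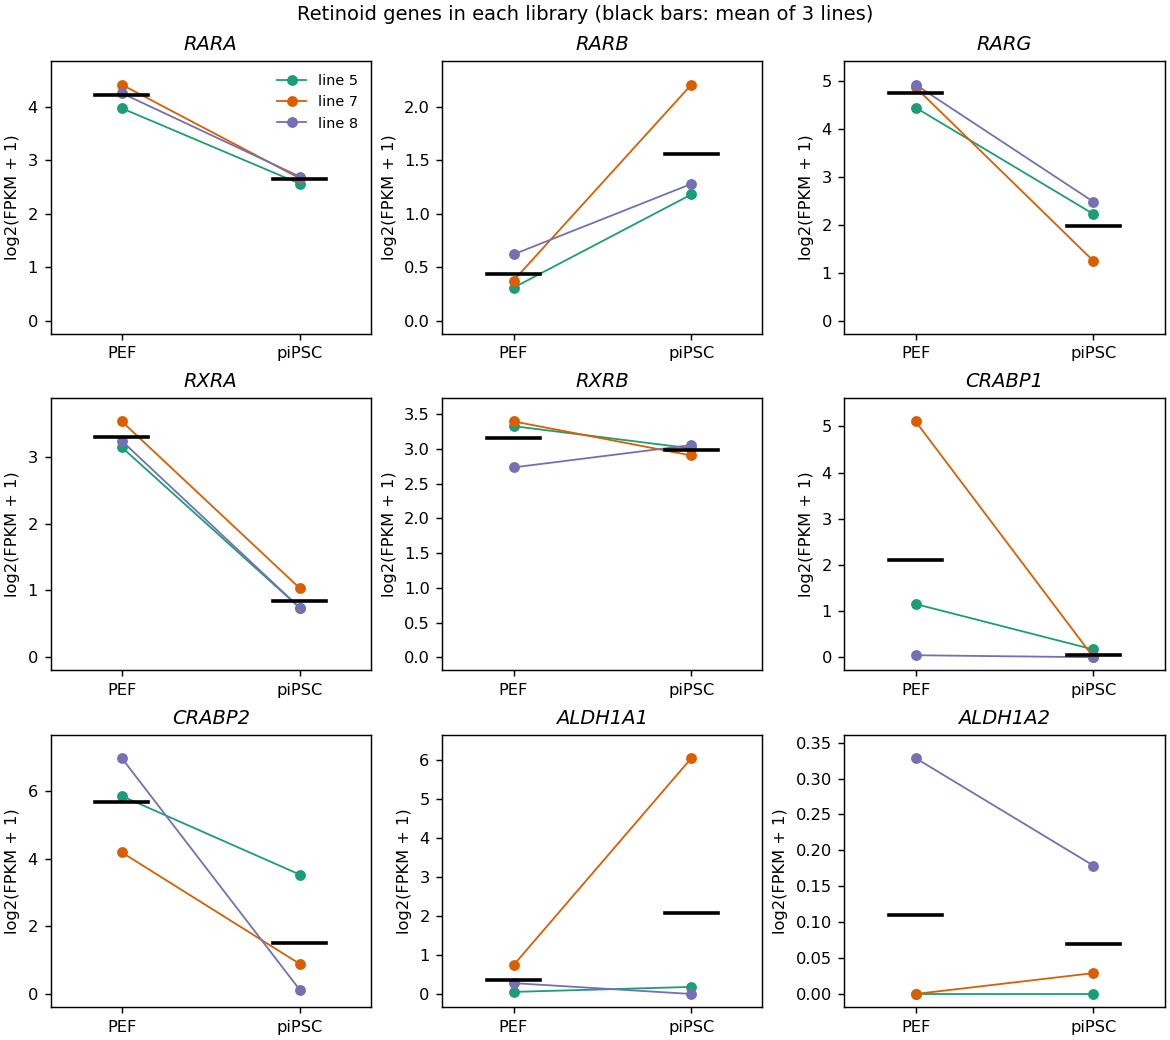
Level of each of the 9 genes in every library as log2(FPKM + 1), on axes scaled per gene. Coloured points joined by a line are the PEF and the piPSC library of the same line (5 green, 7 orange, 8 violet), and black bars are means of 3 lines. RARA, RARG, RXRA and CRABP2 fall in all 3 lines, RARB rises in all 3, and CRABP1 and ALDH1A1 each stand high in 1 library.

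The RAR genes moved in different directions. RARG (ENSSSCG00000000258, Sscrofa11.1 chromosome 5 from 18436268 to 18458624), a receptor known from skin and cartilage, had 20.9, 28.4 and 29.6 FPKM in PEF5, PEF7 and PEF8. In piPSC5, piPSC7 and piPSC8 it had 3.68, 1.37 and 4.59 FPKM. Every piPSC library was below every PEF library, and piPSC7 was lowest, with 107 fragments on the gene. Its mean fell from 26.3 ± 4.70 to 3.21 ± 1.66 FPKM (SD, n = 3), 8.18-fold lower, with a log2FC of -2.77 (SE 0.35, limma adjusted p = 0.00128).

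RARA (ENSSSCG00000017475, chromosome 12 from 22045270 to 22085757), the receptor expressed in most tissues, had 14.7, 20.4 and 18.1 FPKM in PEF5, PEF7 and PEF8 and 4.91, 5.34 and 5.48 FPKM in piPSC5, piPSC7 and piPSC8. The piPSC lines were close to each other, with an SD of 0.295 FPKM around a mean of 5.24 FPKM. The mean was 3.38-fold lower than in PEFs, with a log2FC of -1.58 (SE 0.18, limma adjusted p = 0.000912).

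RARB (ENSSSCG00000011212, chromosome 13 from 12336370 to 12507805), itself a classical gene induced by retinoic acid, had 0.238, 0.296 and 0.536 FPKM in PEF5, PEF7 and PEF8, from 24, 28 and 46 fragments. In piPSC5, piPSC7 and piPSC8 it had 1.27, 3.62 and 1.43 FPKM, from 108, 244 and 89 fragments. The groups did not overlap, and piPSC7 stood above the other piPSC lines. The mean rose from 0.357 ± 0.158 to 2.11 ± 1.32 FPKM (SD, n = 3), which is 5.91-fold, with a log2FC of 1.12 (SE 0.33, limma adjusted p = 0.0282). The fold change is larger where the pseudocount is small, at 2.17 with a pseudocount of 0.1. The call was at the edge of the test. Under a replicate block (the line as a term) the adjusted p was 0.0501, without PEF5 it was 0.0823 and without PEF7 it was 0.0765, and the log2FC was 0.80 without piPSC7 and 0.99 after rescaling to the median ratio, both under 2-fold.

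The sum over the 3 RAR genes was 35.9, 49.0 and 48.2 FPKM in PEF5, PEF7 and PEF8 and 9.86, 10.3 and 11.5 FPKM in piPSC5, piPSC7 and piPSC8, or 4.20-fold lower as a ratio of means. The make-up of that sum changed as well. RARG held between 57.9% and 61.3% of it in PEFs, and 37.3%, 13.3% and 39.9% in piPSC5, piPSC7 and piPSC8. RARB held 0.662%, 0.603% and 1.11% in PEF5, PEF7 and PEF8, against 12.9%, 35.1% and 12.4% in piPSC5, piPSC7 and piPSC8. RARA held between 37.6% and 41.5% in PEFs and between 47.7% and 51.7% in piPSCs. RARA was thus the most abundant RAR transcript in every piPSC library, where RARG was in every PEF library. In piPSC7 RARB was above RARG, and in the other piPSC lines below it.

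The sequence in front of each RAR gene is shown because the 3 receptors bind the same ligand and differed in direction. Each run is the 250 bases before the RefSeq gene start on Sscrofa11.1, 5′ to 3′ on the strand of the gene, with CpG dinucleotides in capitals. RARB lies on the plus strand at chr13:12336137-12336386, RARA on the minus strand at chr12:22085760-22086009 and RARG on the minus strand at chr5:18458626-18458875, where RefSeq types the gene model as a long non-coding RNA.
RARB: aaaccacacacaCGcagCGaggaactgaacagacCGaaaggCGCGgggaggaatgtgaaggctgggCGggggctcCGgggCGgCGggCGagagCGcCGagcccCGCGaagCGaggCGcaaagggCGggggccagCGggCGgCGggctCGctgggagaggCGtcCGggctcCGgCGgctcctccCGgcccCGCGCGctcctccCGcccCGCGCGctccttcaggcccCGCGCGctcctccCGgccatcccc
RARA: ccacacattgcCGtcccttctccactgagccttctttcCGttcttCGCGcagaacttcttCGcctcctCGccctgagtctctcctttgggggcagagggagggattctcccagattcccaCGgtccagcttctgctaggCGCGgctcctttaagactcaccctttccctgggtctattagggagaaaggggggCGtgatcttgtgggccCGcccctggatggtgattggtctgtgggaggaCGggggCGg
RARG: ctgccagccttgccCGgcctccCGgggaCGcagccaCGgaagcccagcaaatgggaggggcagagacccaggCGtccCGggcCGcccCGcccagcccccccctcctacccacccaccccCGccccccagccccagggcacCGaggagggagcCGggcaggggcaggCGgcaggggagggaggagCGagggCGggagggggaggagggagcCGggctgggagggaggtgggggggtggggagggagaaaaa
The stretch before RARB holds 37 CpGs, more than 94.6% of 19559 protein-coding RefSeq genes. That before RARA holds 13 and that before RARG 15, near the median of 12 over these protein-coding genes, which do not include this RARG model. GC content was 77.6% before RARB, 60.8% before RARA and 77.6% before RARG. The other retinoid genes had from 5 CpGs (ALDH1A1) to 23 (RXRB). These counts are for sequence before the RefSeq starts, which for some genes are not the starts of the genes whose FPKM was used. For RXRB, CRABP1 and ALDH1A2 the 250 bases lie inside the measured gene. For CRABP2 they reach into it, as they do for RARB, where they end at 12336386 and the measured gene starts at 12336370. For RXRA they end at 273698841, before the start of the measured gene at 273703960. DNA methylation was not analysed here.

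RAR and RXR heterodimers bind direct repeats of a hexamer. Repeats of AGGTCA or of its variants with the same ending (AGTTCA as well as GGGTCA together with GGTTCA) spaced by 1, 2 or 5 bases (DR1, DR2 and DR5) were searched on both strands within 1000 bases on either side of the RefSeq gene start. Among the 9 genes, RARB alone held such a repeat around these RefSeq starts, a DR5 at chr13:12336550-12336566. It is 164 bases past the gene start and in an intron of the RefSeq model, on the strand of the gene. The window was widened to 1000 bases after this repeat was seen, so its presence there was known beforehand and is only described. The repeat is shown with the hexamers in capitals and the spacer in lower case.
RARB DR5: GGTTCAcggaaAGTTCA
Of 82 retinoid genes searched, 2 others held a repeat. CYP26A1, which encodes an enzyme that degrades retinoic acid, held a DR5 at chr14:104561680-104561696, in an exon of the RefSeq model outside the coding sequence. It lies before the start of the measured gene at 104563195.
CYP26A1 DR5: GGGTCAcaggcGGGTCA
TGM2, the gene of transglutaminase 2, held a DR1 at chr17:41222647-41222659, outside the gene.
TGM2 DR1: AGGTCAgAGGTCA
Over all 19559 protein-coding RefSeq genes, 1.21% held a DR1, 0.537% a DR2 and 0.547% a DR5 in this window. The matches are of letters, and binding was not measured.

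**Figure D2:**
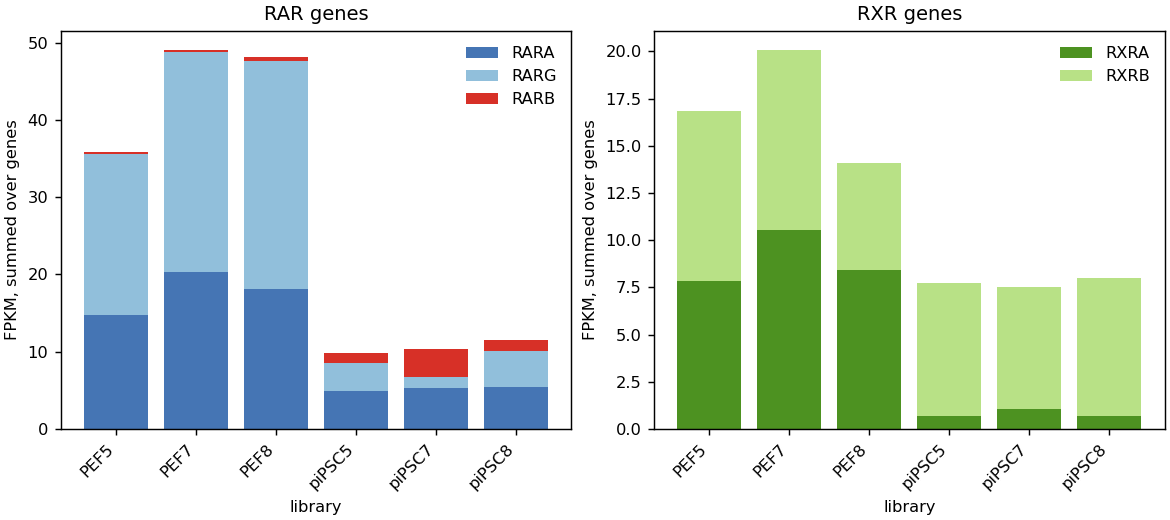
Stacked FPKM of the RAR genes (left) and of the RXR genes (right) in each library. Both sums are lower in each piPSC library than in any PEF library, RARB takes a visible share of the RAR sum in piPSCs, and RXRB makes up most of the RXR sum there.

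Of the RXR genes, which encode the partner that RARs share with other receptors, RXRA fell and RXRB was not called. RXRA (ENSSSCG00000038220, chromosome 1 from 273703960 to 273797613) had 7.83, 10.5 and 8.43 FPKM in PEF5, PEF7 and PEF8 and 0.672, 1.05 and 0.673 FPKM in piPSC5, piPSC7 and piPSC8. The groups were far apart relative to the spread of either. The mean was 11.2-fold lower in piPSCs, with a log2FC of -2.46 (SE 0.21, limma adjusted p = 0.000416), and the lines gave log2 ratios of -2.40, -2.50 and -2.50, the narrowest spread among the called receptor genes.

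RXRB (ENSSSCG00000001474, chromosome 7 from 25236009 to 25243176) had 9.03, 9.52 and 5.64 FPKM in PEF5, PEF7 and PEF8 and 7.03, 6.48 and 7.30 FPKM in piPSC5, piPSC7 and piPSC8. The groups overlapped, with PEF8 lowest of the 6 libraries. The log2FC was -0.16, with a 95% interval from -0.70 to 0.37 (limma adjusted p = 0.564). The gene overlaps SLC39A7, a zinc transporter gene on the other strand, and the library kit does not mark strand, so fragments of the overlap cannot be assigned to 1 of them. The RXR sum was 16.9, 20.1 and 14.1 FPKM in PEF5, PEF7 and PEF8 and 7.71, 7.53 and 7.98 FPKM in piPSC5, piPSC7 and piPSC8, or 2.20-fold lower as a ratio of means. RXRB held between 40.1% and 53.6% of it in PEFs and between 86.1% and 91.6% in piPSCs. RXRG, the other RXR gene, stayed at or below 0.345 FPKM in all libraries and was not tested.

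The carriers varied widely from line to line. CRABP2 (ENSSSCG00000006472, chromosome 4 from 93388092 to 93394155), which hands retinoic acid to the receptors, had 57.1, 17.3 and 126 FPKM in PEF5, PEF7 and PEF8 and 10.6, 0.855 and 0.0923 FPKM in piPSC5, piPSC7 and piPSC8. The lowest PEF line was above the highest piPSC line, but each group spanned a wide range, and piPSC8 rested on 1 fragment. The mean fell from 66.6 ± 54.8 to 3.85 ± 5.86 FPKM (SD, n = 3), with a log2FC of -4.16 (SE 1.03, limma adjusted p = 0.0153). Without PEF8 it was -3.51, at an adjusted p of 0.0501. The log2 ratios were -2.32 in line 5, -3.30 in line 7 and -6.86 in line 8. Line 8 thus went from the highest of the PEF levels to the lowest of the piPSC levels.

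CRABP1 (ENSSSCG00000021873, chromosome 7 from 47601991 to 47609624), a carrier linked to the breakdown of retinoic acid, had 1206 fragments in PEF7, 47 in PEF5 and 1 in PEF8. These are 33.5, 1.22 and 0.0307 FPKM. Of the piPSC libraries, piPSC5 had 4 fragments, or 0.124 FPKM, and piPSC7 and piPSC8 had 0, where a count of 0 allows up to 3 fragments, or 0.117 and 0.127 FPKM. Such limits cover counting error only. PEF7 alone was high, and PEF8 lay below piPSC5, so the groups overlapped. The log2FC was -2.05 (SE 1.21, 95% interval from -4.94 to 0.85, limma adjusted p = 0.195), and -0.54 without PEF7. PEF7, with the least CRABP2 of the PEF lines, had the most CRABP1, which made up 66.0% of its CRABP sum against 2.10% in PEF5 and 0.0244% in PEF8. The CRABP sum was 58.3, 50.8 and 126 FPKM in PEF5, PEF7 and PEF8 and 10.7, 0.855 and 0.0923 FPKM in piPSC5, piPSC7 and piPSC8.

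The enzymes of the last step of retinoic acid synthesis were low in most libraries. ALDH1A1 (ENSSSCG00000028996, chromosome 1 from 226161373 to 226217339), a retinaldehyde dehydrogenase, had 5743 fragments in piPSC7, or 64.8 FPKM. It had 0.134 FPKM in piPSC5 and 0 fragments in piPSC8, where 3 fragments would be 0.0366 FPKM. In PEF5, PEF7 and PEF8 it had 0.0376, 0.666 and 0.213 FPKM. Of the PEF lines, PEF7 was highest, and the piPSC line made from it was the 1 library with a high level. The groups overlapped, and the log2FC was 1.72 (SE 1.56, 95% interval from -2.02 to 5.45, limma adjusted p = 0.383). Without piPSC7 it turned to -0.27.

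Some markers of other cell types were also at their highest in piPSC7. The 4 measured skeletal muscle markers summed to 14.2 FPKM in piPSC7 against 0.164 and 2.51 FPKM in piPSC5 and piPSC8 and 0.0404 to 0.726 FPKM in PEFs. DES accounted for the sum in piPSC7, and MYOD1, MYF5 and PAX7 were at 0 there. The 3 measured mesothelial markers summed to 20.3 FPKM in piPSC7, 18.1 FPKM in piPSC8, 0.502 FPKM in piPSC5 and 0.149 to 1.02 FPKM in PEFs, of which WT1 gave 19.6 FPKM in piPSC7 and 17.5 FPKM in piPSC8. UPK3B was at 0.403 FPKM in piPSC7 and higher in PEF8 (0.633 FPKM). LRRN4 was at 0.326 FPKM in piPSC7, below PEF8 (0.384 FPKM) and piPSC8 (0.572 FPKM). The 5 measured neural markers summed to 101 FPKM in piPSC7, against 52.9 FPKM in piPSC5, 13.2 FPKM in piPSC8 and 16.0 to 37.9 FPKM in PEFs. TUBB3 (58.8 FPKM) and NEUROG2 (36.4 FPKM) carried that sum, NES was at 0.900 FPKM, PAX6 at 5.00 FPKM was below its level in PEF7, and OTX2 had 1 fragment. The 5 measured keratinocyte markers summed to 9.12 FPKM in piPSC7, 4.74 to 5.30 FPKM in the other piPSC lines and 3.04 to 3.36 FPKM in PEFs. In piPSC7 KRT14 (3.04 FPKM) and KRT5 (0.806 FPKM) were above their levels in every other library, and TP63 was at 0. The 5 endothelial markers summed to 1.15 FPKM in piPSC7, 0.0382 to 0.380 FPKM in the other piPSC lines and 0.513 to 2.59 FPKM in PEFs, with TEK at 0.918 FPKM in piPSC7 and CDH5 and KDR at 0. NEUROG2 was also at 27.5 FPKM in piPSC5, and KRT10 was at 5.09, 5.24 and 4.52 FPKM in piPSC5, piPSC7 and piPSC8. The sums of chondrocyte, melanocyte, leukocyte and trophoblast markers were not highest in piPSC7. That of primitive endoderm markers was 0.815 FPKM there, above piPSC5 (0.549 FPKM), piPSC8 (0 FPKM) and PEF7 (0.178 FPKM). It was higher in PEF5 (2.34 FPKM) and PEF8 (8.67 FPKM). Whether cells of any of these types were present was not tested, nor was their part in the level of ALDH1A1.

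ALDH1A2 (ENSSSCG00000025578, chromosome 1 from 113825321 to 114037046), the main enzyme of this step in early embryos, had 16 fragments in PEF8, 6 in piPSC8, 1 in piPSC7 and 0 in the other 3 libraries. The highest level was 0.256 FPKM, and both libraries with more than 1 fragment were of line 8. The gene overlaps AQP9 on the other strand. ALDH1A3, the related enzyme listed with the other genes of retinoid metabolism, had 15.8 FPKM in PEF8 and at most 0.421 FPKM elsewhere (log2FC -1.66, limma adjusted p = 0.181). The ALDH1A transcript of highest level was therefore ALDH1A3 in PEF5 and PEF8 and ALDH1A1 in PEF7, piPSC5 and piPSC7, and ALDH1A2 in piPSC8, with levels under 1 FPKM in PEF5, PEF7, piPSC5 and piPSC8.

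**Figure D3:**
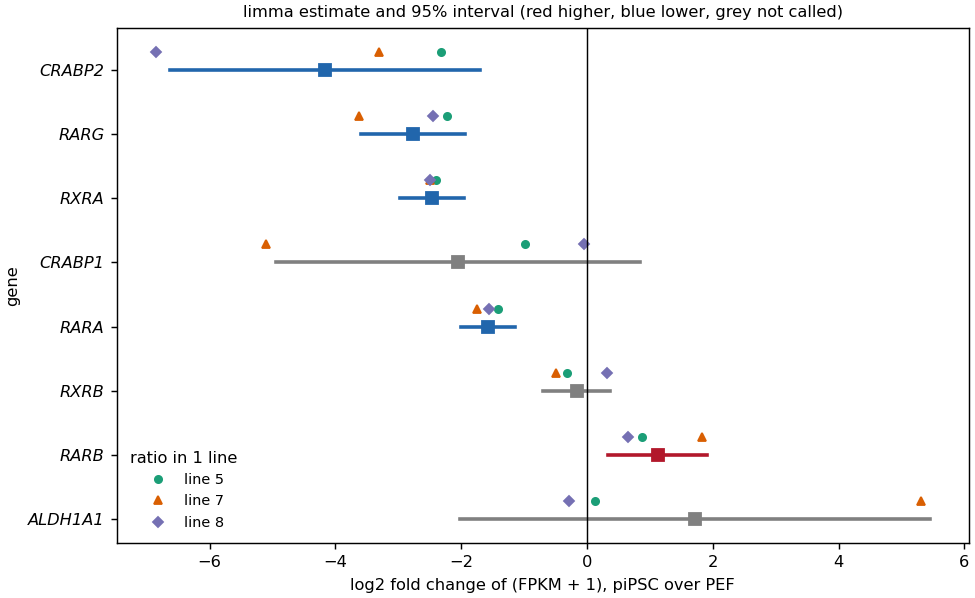
limma log2 fold changes of (FPKM + 1), piPSC over PEF, for the 8 tested genes. Squares are estimates and bars 95% intervals (red called higher, blue called lower, grey not called), and the small symbols above each bar are the ratios of lines 5, 7 and 8. The intervals of RXRB, CRABP1 and ALDH1A1 include 0, and in CRABP1 and ALDH1A1 line 7 lies far from the other lines.

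Within each line, the piPSC library was set against its own PEF library as a ratio of FPKM + 1, with no replicate. At least 2-fold lower were 4 genes in line 5 (RARA, RARG, RXRA and CRABP2), the same 4 and CRABP1 in line 7, and the same 4 in line 8. Of all genes in the table, 13.0%, 12.0% and 17.1% were at least 2-fold lower in lines 5, 7 and 8. Shares of all genes here include genes below the filter on low values, which 8 of the 9 retinoid genes passed. At least 2-fold higher were 0 genes in lines 5 and 8 and 2 in line 7, RARB and ALDH1A1, where 15.5%, 17.9% and 16.9% of all genes were in lines 5, 7 and 8. RARB had log2 ratios of 0.87 in line 5, 1.84 in line 7 and 0.66 in line 8, so the piPSC library was above its PEF library in each line. The added 1 FPKM weighs on a gene of this level, and with a pseudocount of 0.1 the log2 ratios were 2.02 in line 5, 3.23 in line 7 and 1.26 in line 8, all past 2-fold.

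By mean FPKM the order of levels in PEFs was CRABP2, RARG, RARA, CRABP1, RXRA, RXRB, RARB, ALDH1A1 and ALDH1A2. The ranges of neighbours over the lines overlapped except between RARG and RARA and between RXRB and RARB. In piPSCs the order was ALDH1A1, RXRB, RARA, CRABP2, RARG, RARB, RXRA, ALDH1A2 and CRABP1, and ranges did not overlap between RXRB and RARA, between RARB and RXRA and between RXRA and ALDH1A2. The top place of ALDH1A1 rests on piPSC7. RXRA went from above RARB to below it, and RXRB from below RARA to above it. Among the mean levels of all 18007 genes, RARG moved from the percentile 88.1 in PEFs to 52.5 in piPSCs, RARA from 82.8 to 60.1, RXRA from 71.2 to 38.4 and RARB from 31.3 to 47.4. RXRB was at 69.3 in PEFs and 65.1 in piPSCs.

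The other genes of the pathway were read from lists by role. The counts of each list stand beside 20.2% of all tested genes called higher and 16.7% called lower. For uptake and transport, 7 of 8 listed genes were in the table and 3 were tested, of which 1 was higher and 2 were lower. RBP4, the retinol carrier of blood, had 9.46, 9.93 and 7.42 FPKM in PEF5, PEF7 and PEF8 and at most 0.784 FPKM in piPSCs (log2FC -2.76, SE 0.23, limma adjusted p = 0.000405). STRA6, the membrane receptor of RBP4, had 14.6, 19.6 and 5.66 FPKM in PEF5, PEF7 and PEF8 and at most 0.432 FPKM in piPSCs (log2FC -3.32, SE 0.43, limma adjusted p = 0.00146). Carrier and receptor were thus both lower in each piPSC library than in any PEF library. FABP5, a fatty acid carrier that can also bind retinoic acid, went the other way, from 3.04, 2.88 and 18.9 FPKM in PEF5, PEF7 and PEF8 to 55.1, 43.6 and 81.8 FPKM in piPSC5, piPSC7 and piPSC8 (log2FC 3.13, SE 0.65, limma adjusted p = 0.00807). FABP5 was above CRABP2 in every piPSC library and below it in every PEF library.

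Of 24 genes of retinoid metabolism, 20 were in the table and 11 were tested, with 1 higher and 1 lower. RDH13, a retinol dehydrogenase of mitochondria, rose with a log2FC of 1.19 (SE 0.22, limma adjusted p = 0.00517), and 0.95 after rescaling to the median ratio. RETSAT, the retinol saturase, fell with -1.42 (SE 0.15, limma adjusted p = 0.000788). RDH10, the main retinol dehydrogenase of embryos, had 1.47, 2.77 and 3.48 FPKM in PEF5, PEF7 and PEF8 and 5.33, 17.5 and 5.02 FPKM in piPSC5, piPSC7 and piPSC8. The groups did not overlap, and the adjusted p was 0.053 (limma, log2FC 1.36), or 0.0477 under the replicate block. LRAT, which stores retinol as esters, had 0, 0 and 0.0414 FPKM in PEF5, PEF7 and PEF8 and 1.17, 2.87 and 0.342 FPKM in piPSC5, piPSC7 and piPSC8 (log2FC 1.15, limma adjusted p = 0.0503). LRAT did not pass the test as set, and limma's voom on the recovered fragments gave an adjusted p of 0.00834. DHRS3, which turns retinaldehyde back to retinol, was highest in PEF7 at 6.97 FPKM and was not called (-0.89, limma adjusted p = 0.164).

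Of the CYP26 genes, whose enzymes clear retinoic acid, CYP26B1 had 10.2, 13.1 and 65.9 FPKM in PEF5, PEF7 and PEF8 and 2.60, 4.49 and 0.463 FPKM in piPSC5, piPSC7 and piPSC8. It was lower in piPSCs with a log2FC of -2.84 (SE 0.78, limma adjusted p = 0.0221), and its adjusted p was 0.0582 under the replicate block, 0.0558 without piPSC5 and 0.0592 without piPSC8. As with CRABP2, line 8 held both the highest PEF level and the lowest piPSC level. CYP26A1, the quickest of the family to respond to retinoic acid in many cells, had 1.53 FPKM in piPSC5, 0.0238 FPKM in PEF8 and 0 elsewhere, and was below the filter.

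**Figure D4:**
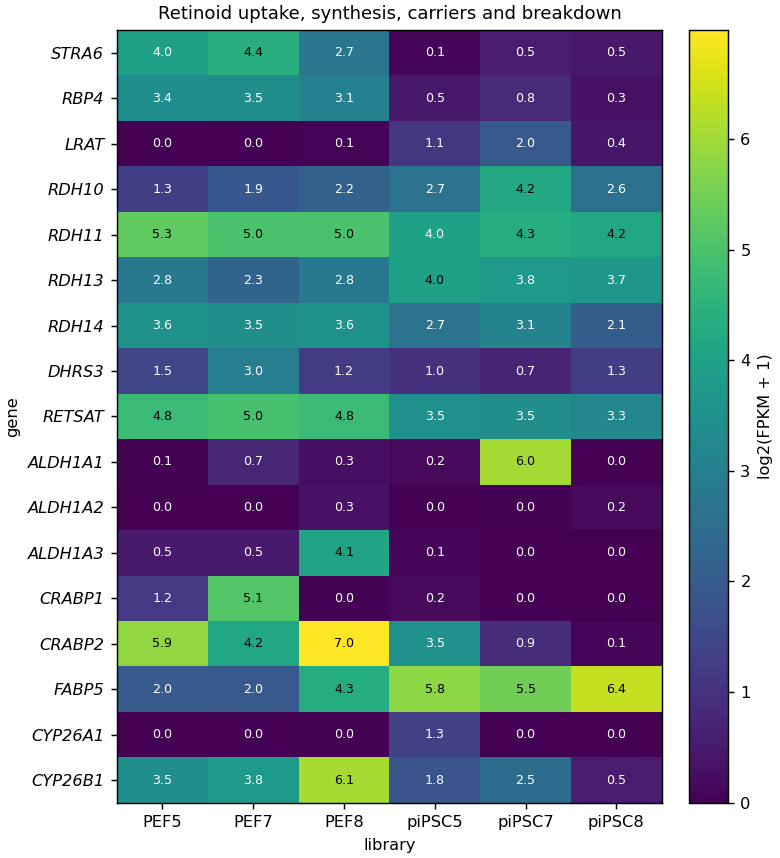
Heat map of log2(FPKM + 1) for genes of retinoid uptake, synthesis, binding and breakdown in the 6 libraries, with the value printed in each cell. STRA6 and RBP4 are bright in PEFs and dark in piPSCs. FABP5 is brighter in each piPSC library than in any PEF library, and of the PEFs it is brightest in PEF8 (18.9 FPKM). ALDH1A1 (piPSC7), ALDH1A3 (PEF8) and CRABP1 (PEF7) are bright in 1 library each.

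Of 19 genes known to respond to retinoic acid, a list that includes RARB and CRABP2, 18 were in the table and 13 were tested, with 4 higher and 2 lower and a median log2FC of -0.06. Besides RARB, the higher ones were the orphan nuclear receptors NR2F1 and NR2F2 (COUP-TF proteins) and the homeobox gene MEIS2. NR2F1 had 3.07, 3.05 and 0.908 FPKM in PEF5, PEF7 and PEF8 and 21.0, 21.9 and 25.9 FPKM in piPSC5, piPSC7 and piPSC8 (log2FC 2.92, SE 0.33, limma adjusted p = 0.000892). NR2F2 had a log2FC of 1.44 (limma adjusted p = 0.0095) and MEIS2 of 1.64 (limma adjusted p = 0.0108). The lower ones were CRABP2 and STRA6. The list therefore held called genes of both directions. RARRES1, first found as a gene induced by a retinoid in skin, had 36.0, 8.67 and 57.3 FPKM in PEF5, PEF7 and PEF8 and 2.89, 18.2 and 1.18 FPKM in piPSC5, piPSC7 and piPSC8, with line 7 apart from the others (log2FC -2.33, limma adjusted p = 0.0803, and 0.0227 without piPSC7).

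Of 15 coregulators, 13 were in the table and 12 were tested, with 3 higher and 0 lower and a median of 0.47. NRIP1, a corepressor that binds receptors with ligand, had a log2FC of 1.27 (limma adjusted p = 0.00633). The coactivators CARM1 and NCOA3 had 1.16 (limma adjusted p = 0.00559) and 1.09 (limma adjusted p = 0.0231). CARM1 was at 0.93 and NCOA3 at 0.85 after rescaling to the median ratio, under 2-fold. After rescaling to equal sums they were at 0.96 and 0.85, also under 2-fold. Under limma's voom CARM1 kept its call at 1.07, and NCOA3 lost it at 0.94 (adjusted p = 0.0514). NCOA3 also lost its call without PEF5, PEF7, piPSC7 or piPSC8 in turn (adjusted p of 0.0645 to 0.0752). HDAC3 and TBL1XR1, parts of the corepressor complex that unliganded RARs hold, had adjusted p values of 0.0191 and 0.0338 in limma with log2FC values of 0.62 and 0.73, below 2-fold. For HDAC3 the log2FC was 0.36 after rescaling to the median ratio (limma adjusted p = 0.086) and 0.32 after rescaling to equal sums (0.18). Without piPSC5 its adjusted p in limma was 0.0665.

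Genes of other receptors that pair with RXRs were also read. Of 13 listed, all were in the table and 9 were tested, with 0 higher and 6 lower and a median of -1.27. THRB, a thyroid hormone receptor, had 7.06, 8.25 and 6.25 FPKM in PEF5, PEF7 and PEF8 and 0.143, 0.0113 and 0 FPKM in piPSC5, piPSC7 and piPSC8 (log2FC -2.96, SE 0.21, limma adjusted p = 0.00025). VDR, the vitamin D receptor, had a log2FC of -2.60 (limma adjusted p = 0.00043), NR4A2 of -3.19 (limma adjusted p = 0.00268), NR1H2 (the liver X receptor beta gene) of -1.27 (limma adjusted p = 0.00245), NR4A1 of -1.24 (limma adjusted p = 0.0138) and PPARD of -1.24 (limma adjusted p = 0.00907). RXRA was thus lower, as were 6 of the 9 tested genes of its partners, where 16.7% of all tested genes were called lower. THRA had a log2FC of 0.87 (limma adjusted p = 0.0128), under 2-fold, and PPARA of 0.15 (limma adjusted p = 0.667). The list was chosen with earlier results of these data known. PPARG, the adipocyte receptor, had 8.51 FPKM in PEF8 and was not called (-1.51, limma adjusted p = 0.103).

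Thyroid hormone receptor genes lie near RAR genes on the same chromosomes. RARB and THRB, on chromosome 13, are 976 kb apart with 0 genes of the table between them, and they moved in opposite directions, with log2FC values of 1.12 and -2.96. RARA and THRA, on chromosome 12, are 180 kb apart with 5 genes between them. THRA, singled out for this position after its values were seen, had 1.32, 1.41 and 1.90 FPKM in PEF5, PEF7 and PEF8 and 4.04, 3.23 and 3.64 FPKM in piPSC5, piPSC7 and piPSC8 (log2FC 0.87, under 2-fold, limma adjusted p = 0.0128), while RARA fell. The signs were thus opposite in these pairs, but THRA was chosen with its values known and was not called. How often neighbouring genes differ in sign over the genome was not counted, and no pattern is drawn from these pairs. RARG and NR4A1, on chromosome 5, are 1025 kb apart with 23 genes between them, and both were lower.

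**Figure D5:**
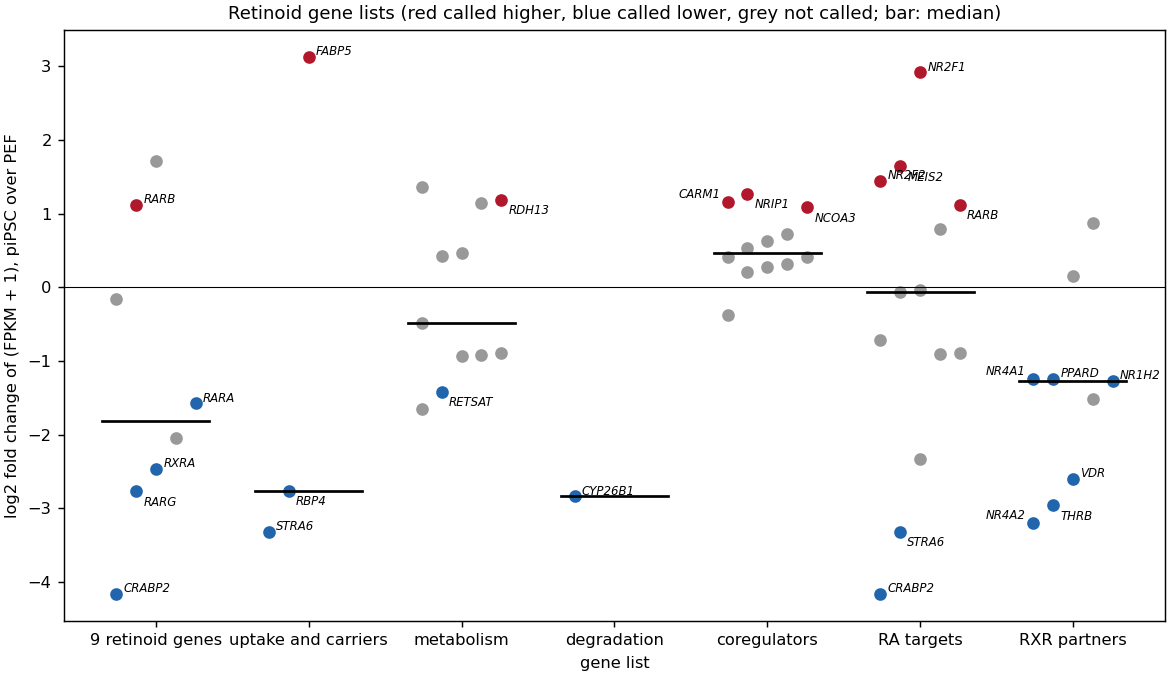
limma log2 fold changes of (FPKM + 1), piPSC over PEF, of the tested genes of each list (1 point per gene, red called higher, blue called lower, grey not called), with the list's median as a black bar. RARB, CRABP2, STRA6 and DHRS3 stand in 2 lists each. Called coregulators lie above 0, called RXR partners below 0, and the retinoic acid targets hold called genes on both sides.

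High levels in 1 line were read across the retinoid genes. A gene was counted where FPKM + 1 in a library was at least 2-fold above both other lines of its group. In piPSC7 this held for 533 of 18007 genes (2.96%) and for 4 of 78 retinoid genes (5.13%), namely ALDH1A1, RDH10, RARRES1 and RARRES2. In PEF8 it held for 598 genes (3.32%) and 8 of the 78, among them CRABP2, FABP5, ALDH1A3 and CYP26B1. In PEF7 it held for 144 genes (0.800%) and for CRABP1 and DHRS3, and in piPSC5 for 242 genes (1.34%) and for CRABP2 and CYP26A1. No receptor gene among the 5 stood out in this way in any library, though RARB came close in piPSC7. It had 3.62 FPKM there against 1.27 and 1.43 FPKM in piPSC5 and piPSC8, and the added 1 narrows that gap.

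For each called gene, the tested gene with the most similar profile over the 6 libraries was found by Pearson's r of log2(FPKM + 1), as a description in which the groups' difference carries most of the likeness. It was LAMP1 for RARA (r = 0.998), FRAT2 for RARB (0.998), GBGT1 for RARG (0.999), CD63 for RXRA (0.9999) and C18orf32 for CRABP2 (0.994). FRAT2 had 2.53, 2.87 and 3.36 FPKM in PEF5, PEF7 and PEF8 and 4.74, 8.81 and 5.16 FPKM in piPSC5, piPSC7 and piPSC8, and so shared with RARB the high level in piPSC7. At r of at least 0.95 there were 976 genes for RXRA, 785 for RARA and 425 for RARG, but 95 for RARB and 88 for CRABP2.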

How the data were processed

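RNA-seq values of 3 PEF and 3 piPSC lines were used. The authors deposited FPKM values per gene. The submitters' processing notes name HISAT2 2.1.0, Bowtie2 2.2.3 and HTSeq 0.6.0, and the build Sscrofa11.1, and the annotation release is not given in the sources used here. The kit does not mark strand. How fragments shared between genes were counted is not stated, and fragments of the mouse feeder cells under the piPSC colonies cannot be told apart.

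The FPKM values were whole multiples of 1 fragment for 100% of 18007 genes, within 0.004 of a fragment, which gave the fragments per gene and library and totals of 11010629 to 17836510. Groups were compared with R 4.3.3 and its package limma 3.58.1 (a linear model per gene, moderated by eBayes with a mean trend) on log2(FPKM + 1), a pseudocount of 1, for 12428 genes with a mean of at least 0.5 FPKM, two-sided, with Benjamini-Hochberg adjustment over all of them. The threshold for a call was an adjusted p below 0.05 together with a 2-fold change. Lines were not paired in this fit, after the general statistics section of the study, which names an unpaired test, although its expression comparison set each piPSC line against its own PEF line. The fit with the line as a block is therefore given where it changes a call. The piPSC line of a number was made from the PEF line of that number, so the design pairs them. Their deviations from the mean of the group had correlations of 0.0921, 0.0946 and 0.08 within lines and of -0.121 to 0.0553 across lines. The smallest p of an exact permutation test on 3 against 3 lines is 0.1, and it was not used.

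Alternatives were a replicate block, a pseudocount of 0.1, other filters, 2 rescalings, quantile normalization, no trend, limma's voom with TMM factors on the recovered fragments, and each library left out. Named genes are the 9 retinoid genes, the called genes of each list, 6 further genes of interest (CYP26A1, CYP26B1, STRA6, RDH10, DHRS3 and TGM2), and up to 5 per list by fold change. THRA and RARRES2 were added after their values were seen. Genes and lists were chosen with earlier results of these data known. The fit was tested on simulated data. Sequences and gene starts came from RefSeq on Sscrofa11.1, and the search window was widened to 1000 bases after the RARB repeat was seen. RDH11 was matched by gene identifier. Another listed gene is not reported here. Chromatin and methylation data were not analysed here.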

Additional observations from a re-analysis of the deposited data

Results flagged for a closer look

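TGM2, the gene of transglutaminase 2 and a known target of retinoic acid, was flagged because its lines moved in opposite directions. It had 0.902, 0.247 and 34.4 FPKM in PEF5, PEF7 and PEF8 and 0.206, 2.55 and 3.41 FPKM in piPSC5, piPSC7 and piPSC8. The log2 ratio of piPSC over PEF was 1.51 in line 7 and -3.01 in line 8, each from 1 library against 1. The difference between the lines was not tested. Over all lines the log2 fold change was -0.72 (limma adjusted p = 0.656).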

How the results depend on the processing

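Among the 8 tested retinoid genes, 113 of 120 alternative values kept their direction and their side of the threshold, 6 lost the call and 1 changed sign. The 4 lower genes were called under each alternative that keeps all libraries. The 1 higher gene, RARB, was not, and the number of genes called higher was 0 with the replicate block (log2 fold change 1.12, adjusted p = 0.0501) and 0 after rescaling to the median ratio (0.99, adjusted p = 0.0397). Leaving out 1 library gave 0 to 1 higher and 3 to 4 lower genes, with RARB at 0.80 to 1.31, CRABP2 at -5.17 to -3.46 and ALDH1A1 at -0.27 (without piPSC7) to 2.75. RARB lost its call without PEF5 (1.06), PEF7 (1.09) or piPSC7 (0.80), and CRABP2 without PEF8 (-3.51). Beyond RARB, the replicate block ended the call of CYP26B1, gave RDH10 one, and changed no other call among the genes named.

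Among other retinoid genes, 8 were called higher and 10 lower. Rescaling to the median ratio gave 5 and 12, rescaling to equal sums 6 and 12, and leaving out 1 library 7 to 9 and 9 to 14, with 14 lower without piPSC7. Leaving out 1 library moved TGM2 between -1.62 (without PEF7) and 0.79 (without PEF8). Over all genes, 2505 higher and 2070 lower calls became 1879 and 2511 under the median ratio and 1986 and 2815 under equal sums. The median over all tested genes went from 0.20 to -0.01 and -0.06 under these rescalings.

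The number of genes at least 2-fold higher in line 5 was 1 with a pseudocount of 0.1 and 1 after rescaling to equal sums, and in line 8 it was 1 with a pseudocount of 0.1, against 0 as reported. Without 1 library, 2 to 5 genes changed rank in PEFs and 4 to 6 in piPSCs. The cause of these changes was not tested. Levels of 1 to 3 fragments (CRABP1, ALDH1A2, CRABP2 in piPSC8) do not separate a low level from none.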
